A study of Homo sapiens with 12 samples.

Results

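Lineage and tumour markers of serous ovarian carcinoma were followed through the 12 libraries of the study: PAX8, WT1, SOX17, EMX2, MECOM, MUC16, MUC1, WFDC2, MSLN and FOLR1. They were taken by symbol from the deposited table, where they are 10 of 58735 genes. Of the 10, 5 had enough counts to be tested (PAX8, MSLN, FOLR1, MUC1 and WFDC2), as 5 of the 15378 genes tested in all. WT1, SOX17, EMX2, MECOM and MUC16 held between 0 and 36 counts over all 12 libraries and are described by their counts alone. The name of the group is therefore borne out by the RNA for part of its members only.

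All libraries came from Ovcar8, a long-established high-grade serous line grown in RPMI-1640 with serum, transduced with lentivirus and selected with puromycin. There were 3 libraries in each of 4 groups: CCNE1 overexpression with shTMLHE #1 (shTMLHE 1), CCNE1 overexpression with shTMLHE #2 (shTMLHE 2), CCNE1 overexpression alone (CCNE1) and control. CCNE1 encodes cyclin E1, the partner of the kinase CDK2 at entry into S phase, and TMLHE the first enzyme of carnitine synthesis, so both hairpin groups carry the overexpression that their reference carries too. The control library names carry the letters EV; no group is labelled as holding a non-targeting hairpin, all cells are from a single line, and the labels do not say that the replicates were separate cultures, so p-values measure the spread between these libraries, which may be technical.

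Serous carcinoma is thought to arise largely from the secretory epithelium of the fallopian tube, a derivative of the Müllerian duct. PAX8, SOX17, EMX2 and MECOM are transcription factors of that lineage, and WT1 is the nuclear marker that pathologists use beside PAX8 to tell serous from other ovarian carcinomas. MUC16 carries the CA125 epitope and WFDC2 encodes HE4, both measured in serum, while MUC1, MSLN (mesothelin) and FOLR1 (folate receptor alpha) are surface proteins at which antibody drugs have been aimed.

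Libraries held 14.9 to 16.3 M counts with shTMLHE 1, 14.6 to 19.9 M with shTMLHE 2, 15.8 to 21.5 M with CCNE1 and 14.1 to 16.6 M in control. TMLHE averaged 0.956 ± 0.286 CPM with shTMLHE 1 and 0.482 ± 0.241 CPM with shTMLHE 2, against 15.7 ± 2.69 CPM with CCNE1, and CCNE1 itself averaged 1001 ± 34.0 CPM with CCNE1 against 33.1 ± 1.28 CPM in control (SD, n = 3 each), as the labels say. The groups differed in make-up: TMM factors, which rescale library sizes on the assumption that most genes are level, were 1.11 to 1.12 with shTMLHE 1, 1.22 to 1.23 with shTMLHE 2, 0.847 to 0.853 with CCNE1 and 0.860 to 0.864 in control. Fold changes also ran with GC content across genes, with a Spearman rho of -0.38 for shTMLHE 1 minus CCNE1, -0.65 for shTMLHE 2 minus CCNE1 and -0.39 for CCNE1 minus control over 15373 genes, which are not independent replicates. Both features touch the markers, whose exons hold 56.1% (FOLR1 and WFDC2) to 65.0% (MSLN) G and C among the 5 tested. Fold changes ran with exon length too, at a rho of 0.32 for shTMLHE 1 minus CCNE1 and 0.31 for shTMLHE 2 minus CCNE1. For CCNE1 minus control that rho was 0.12. Fold changes are under TMM scaling unless another is named, and many of them change when libraries are scaled by total counts or when the trend with GC content and length is removed. CCNE1 RNA was not level among the overexpressing groups. Against the CCNE1 group its log2 fold change was 0.34 with shTMLHE 1 and -0.24 with shTMLHE 2, and the hairpins differed by 0.58. With shTMLHE 2 it was higher with total counts and did not pass the test without the GC and length trend.

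On the scale of CPM (counts per M counts, after TMM scaling), 5 of the 10 markers were at or near 0 in every group. MUC16, on chromosome 19 from 8848844 to 8981342 (GRCh38, minus strand), had 0 counts over its 43830 exon bases in all 12 libraries, a total of 200.38 M counts, which allows up to 0.0150 CPM. MECOM, the MDS1 and EVI1 locus on chromosome 3 from 169083499 to 169663618, also had 0 counts in all 12 libraries and the same limit. EMX2, a homeobox factor of the developing urogenital tract, had 1 count, in shTMLHE 1 replicate 1. SOX17, an endoderm and Müllerian factor, had 9 counts in 3 libraries, 5 of them in CCNE1 replicate 3. These limits cover counting error only, and reads of PCR-amplified libraries are not independent molecules.

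WT1, a zinc finger factor on chromosome 11 from 32387775 to 32435630, had 36 counts in 9 of the 12 libraries. Its counts were 5, 1 and 3 with shTMLHE 1, 5, 3 and 2 with shTMLHE 2, 4, 0 and 0 with CCNE1, and 1, 12 and 0 in control. Control replicate 2 therefore held 12 of the 13 control counts, the groups overlapped, and no difference was detectable at this depth. WT1-AS, the antisense transcript that shares 113 exon bases with WT1, had 4 counts in all, and EMX2OS, which overlaps EMX2, had 0.

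The windows around the RefSeq transcription starts (250 bases before to 50 after, GRCh38.p14) are shown for PAX8 and MUC1, which were transcribed in every library, and for MECOM and EMX2, which had 0 and 1 counts. They are written 5′ to 3′ on the strand of the gene, with CpG sites in capitals, and come from chr2:113278872-113279171 (PAX8, minus strand), chr1:155192866-155193165 (MUC1, minus), chr3:169663663-169663962 (MECOM, minus) and chr10:117542496-117542795 (EMX2, plus).
PAX8: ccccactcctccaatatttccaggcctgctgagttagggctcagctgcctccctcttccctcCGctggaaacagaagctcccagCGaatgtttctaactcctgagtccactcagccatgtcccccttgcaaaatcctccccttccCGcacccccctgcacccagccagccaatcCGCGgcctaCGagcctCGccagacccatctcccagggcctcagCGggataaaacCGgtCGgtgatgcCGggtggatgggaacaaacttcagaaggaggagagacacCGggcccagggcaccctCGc
MUC1: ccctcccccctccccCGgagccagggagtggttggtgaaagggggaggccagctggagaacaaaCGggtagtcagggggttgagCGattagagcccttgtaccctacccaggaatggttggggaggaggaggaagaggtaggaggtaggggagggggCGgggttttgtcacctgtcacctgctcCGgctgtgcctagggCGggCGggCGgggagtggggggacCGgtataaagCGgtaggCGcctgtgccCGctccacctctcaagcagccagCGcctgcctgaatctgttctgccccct
MECOM: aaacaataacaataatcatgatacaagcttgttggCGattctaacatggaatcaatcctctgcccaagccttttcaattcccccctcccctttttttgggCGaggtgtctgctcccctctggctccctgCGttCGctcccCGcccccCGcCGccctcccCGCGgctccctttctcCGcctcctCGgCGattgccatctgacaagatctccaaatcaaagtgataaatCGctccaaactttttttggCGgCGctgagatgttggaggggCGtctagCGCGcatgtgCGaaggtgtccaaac
EMX2: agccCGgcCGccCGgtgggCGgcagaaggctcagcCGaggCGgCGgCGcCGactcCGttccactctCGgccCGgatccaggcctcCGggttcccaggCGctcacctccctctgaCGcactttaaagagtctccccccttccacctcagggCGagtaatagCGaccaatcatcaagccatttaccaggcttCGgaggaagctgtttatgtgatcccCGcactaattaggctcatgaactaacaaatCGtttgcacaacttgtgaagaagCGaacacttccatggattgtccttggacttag
The PAX8 and MUC1 windows each hold 13 CpG sites, the MECOM window 19 and the EMX2 window 21, against a median of 14 over the 35116 windows in the table. At least as many sites as in PAX8 and MUC1 are held by 51.7% of all windows, as many as in MECOM by 42.9% and as many as in EMX2 by 39.5%. The windows of WT1 and WFDC2 hold 21 and 22 sites. A GC box, the letters GGGCGG on either strand, is in the windows of MUC1, MECOM, EMX2, WT1 and WFDC2 and in 45.0% of all windows, and is not in that of PAX8. Of the windows shown, those of PAX8 and MUC1 thus hold fewer CpG sites than those of MECOM and EMX2. The window of WFDC2, which was tested at a low level, holds more than any of them, so the number does not separate all tested members from the silent ones. The motif is shared by MUC1 and the silent MECOM, and a match or its absence says nothing of a factor. The RefSeq start used for EMX2 lies 302 bases from the 5′ end of the counted gene. The RefSeq window of MUC16 lies 29067 bases upstream of the counted gene model and holds 7 CpG sites.

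**Figure D1:**
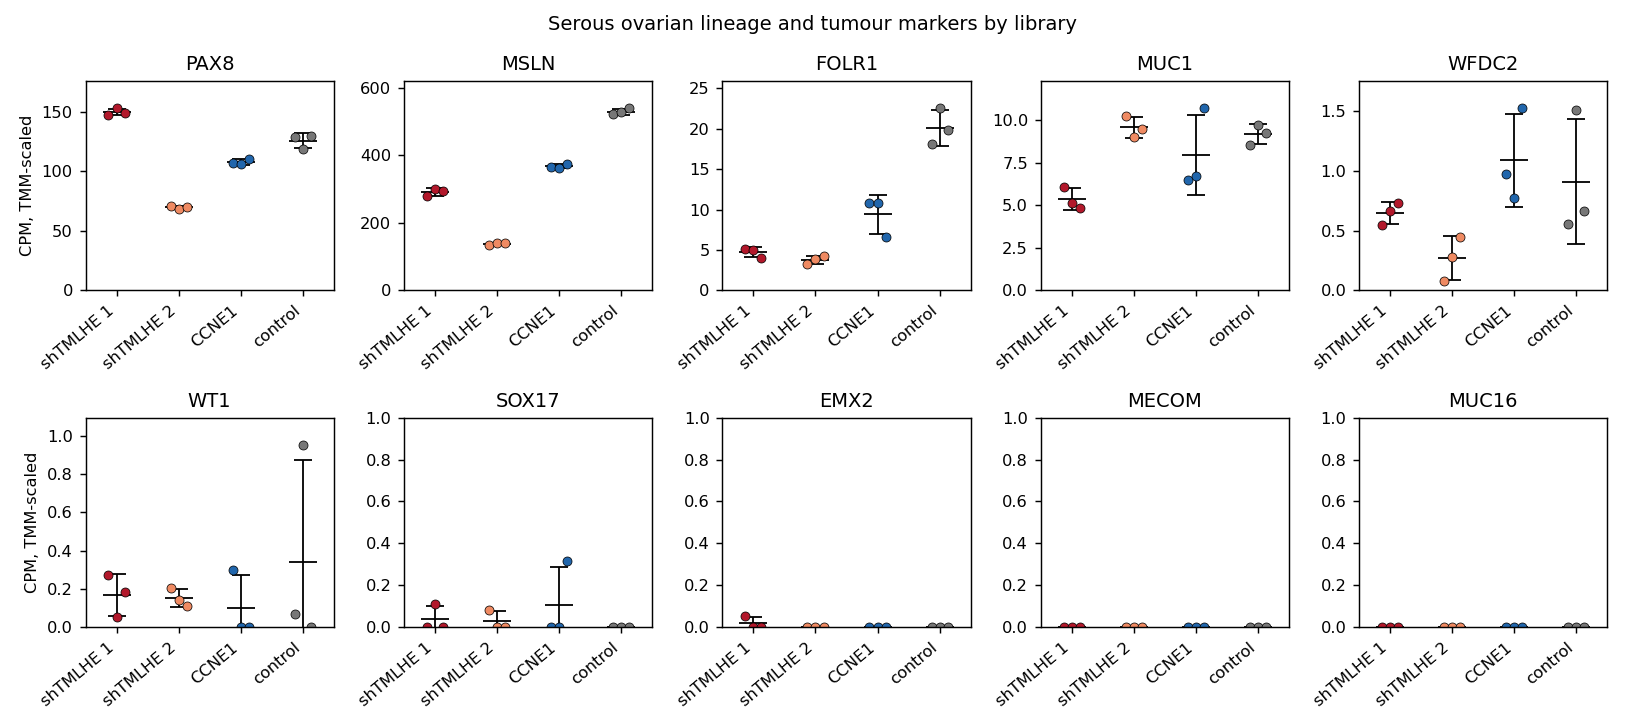
Levels of the 10 markers in each library, in TMM-scaled CPM on linear axes with a scale of their own for each gene. Points are the 3 libraries of a group and bars the mean ± SD (n = 3). MSLN and FOLR1 are lower in every group with CCNE1 or a hairpin than in control, PAX8 is highest with shTMLHE 1 and lowest with shTMLHE 2, and MUC16 and MECOM are at 0 throughout.

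Levels of different genes were compared per length, in RPKM (TMM-scaled CPM per kilobase of exon). MSLN was the most abundant marker, at 114 RPKM with shTMLHE 1, 54.2 with shTMLHE 2, 143 with CCNE1 and 207 in control, above 95.9% to 98.2% of tested genes. PAX8 came next, at 20.3 RPKM with shTMLHE 1, 9.45 with shTMLHE 2, 14.6 with CCNE1 and 17.0 in control. FOLR1 stood at 2.87 RPKM with shTMLHE 1, 2.30 with shTMLHE 2, 5.73 with CCNE1 and 12.2 in control. In rank it was above 50.8% of tested genes with shTMLHE 1, 45.5% with shTMLHE 2, 65.1% with CCNE1 and 77.7% in control. MUC1 lay between 1.14 and 2.03 RPKM, and WFDC2 between 0.196 and 0.787 RPKM, above 8.16% to 28.5% of tested genes. FOLR1 was thus near PAX8 in control and near MUC1 with shTMLHE 2.

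**Figure D2:**
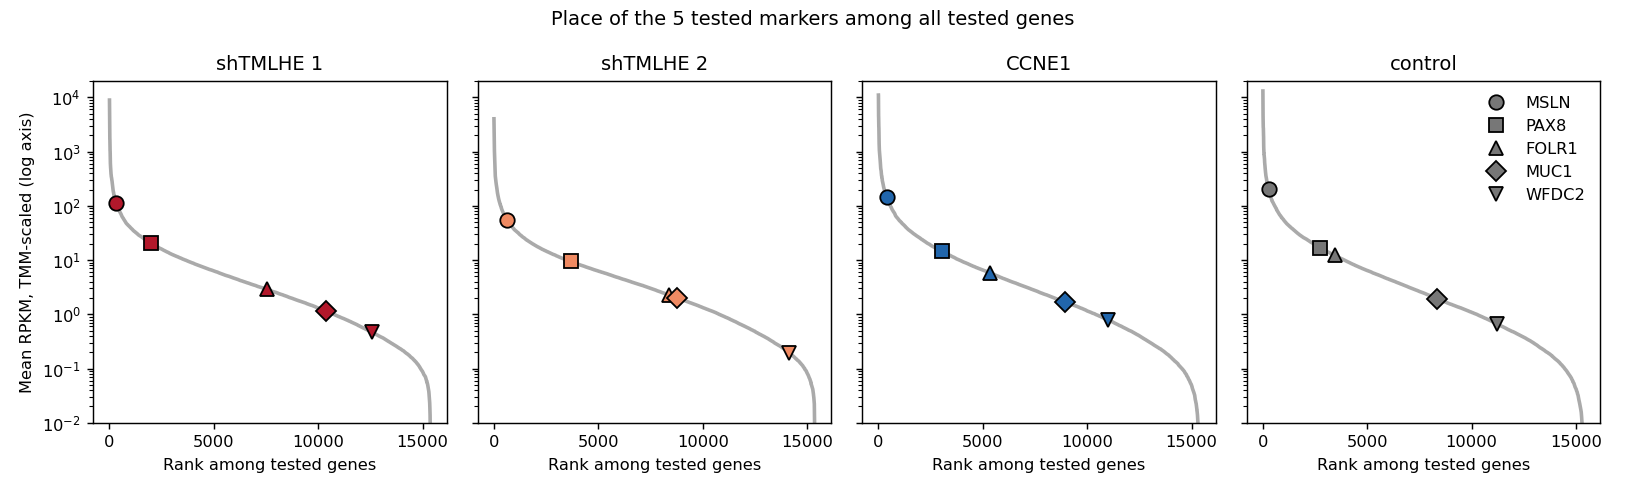
Mean level of the 5 tested markers (symbols) on the curve of all 15378 tested genes, ranked within each group. The vertical axis is mean RPKM on a log scale and the horizontal axis is rank, with the most abundant gene at the left. MSLN keeps the leftmost place of the 5 in each group, and FOLR1 moves right, to a lower rank, outside control.

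CCNE1 overexpression was first compared with control. In the CCNE1 libraries 3 markers fell: FOLR1 by 2.13-fold, MSLN by 1.44-fold and PAX8 by 1.17-fold. MUC1 and WFDC2 did not pass the test. In counts, 0 of the 5 tested markers were higher and 3 were lower, where 44.2% of all tested genes were called at an adjusted p under 0.05, 25.1% higher and 19.1% lower. The median log2 fold change of the 5 was -0.22, against 0.05 over all tested genes. Without the trend in GC content and length it was -0.02, with 0 higher and 2 lower. The 0 higher markers with edgeR were also 0 at an unadjusted p under 0.05 and with DESeq2.

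FOLR1, the folate receptor, had 10.8, 10.8 and 6.65 CPM in the CCNE1 libraries, against 18.1, 22.5 and 19.8 CPM in control. Its groups did not overlap, although CCNE1 replicate 3 was lower than its partners. The log2 fold change was -1.09 ± 0.17 (SE; edgeR quasi-likelihood test, Benjamini-Hochberg adjusted p = 1.19e-06), and -0.89 without that library. MSLN, the mesothelin precursor, had 365, 363 and 374 CPM with CCNE1, against 522, 528 and 539 CPM in control. Each CCNE1 library was below each control library, at a log2 fold change of -0.53 ± 0.04 (edgeR adjusted p = 3.25e-15). PAX8 had 106.9, 106.3 and 110.8 CPM with CCNE1, against 129.0, 119.0 and 130.1 CPM in control. Its groups did not overlap either, and its change of -0.22 ± 0.05 (edgeR adjusted p = 0.000214) was -0.02 (adjusted p = 0.735) once the trend with GC content and length was removed. The share of all tested genes whose groups did not overlap was not counted, in this comparison or in those below.

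MUC1, a membrane mucin, had 6.50, 6.71 and 10.7 CPM with CCNE1, against 8.57, 9.75 and 9.27 CPM in control. CCNE1 replicate 3 stood above every control library and the other two below, and the log2 fold change was -0.20 ± 0.18 (edgeR adjusted p = 0.386). Without CCNE1 replicate 3 it was -0.47 (edgeR adjusted p = 0.0364), so that library decides the call. WFDC2, a small secreted protease-inhibitor-like protein, had 13, 14 and 24 counts with CCNE1, against 8, 19 and 8 counts in control, in groups that overlapped. Its log2 fold change of 0.26 ± 0.57 (edgeR adjusted p = 0.742) has an SE larger than itself.

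TMLHE knockdown was then compared with CCNE1 overexpression alone, hairpin by hairpin, so both comparisons and the preceding one share the CCNE1 libraries. FOLR1 and MSLN fell with both hairpins, by 1.99-fold and 1.26-fold with shTMLHE 1 and by 2.50-fold and 2.65-fold with shTMLHE 2. The fall of MSLN with shTMLHE 1 turned to a rise in another scaling. PAX8 went opposite ways, 1.39-fold higher with shTMLHE 1 and 1.54-fold lower with shTMLHE 2. MUC1 fell with shTMLHE 1 and WFDC2 with shTMLHE 2.

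With shTMLHE 1, 1 of the 5 tested markers was higher and 3 were lower, where 60.7% of all tested genes were called, 30.4% higher and 30.3% lower. With shTMLHE 2, 0 were higher and 4 were lower, where 73% of all tested genes were called, 36.8% higher and 36.2% lower. The median log2 fold change of the 5 markers was -0.57 with shTMLHE 1 and -1.32 with shTMLHE 2, against 0.03 over all tested genes in both comparisons. Without the GC and length trend the split for shTMLHE 1 turned to 2 higher and 1 lower, that for shTMLHE 2 was 1 higher and 3 lower, and the marker medians were -0.29 and -0.20. With total counts as the scaling, 1 was higher and 1 lower for shTMLHE 1 (2 called rather than 4), 1 was higher and 3 lower for shTMLHE 2, the marker medians were -0.18 and -0.80, and the median of all tested genes moved to 0.43 with shTMLHE 1 and 0.56 with shTMLHE 2. The 0 markers higher with edgeR for shTMLHE 2 were also 0 at an unadjusted p under 0.05 and with DESeq2, while MUC1 was the 1 higher marker with total counts, without the GC and length trend and with upper quartile scaling. With total counts 75.9% of calls for shTMLHE 1 and 70.7% for shTMLHE 2 were higher.

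PAX8, on chromosome 2 from 113215997 to 113278950, had 147.8, 153.1 and 149.6 CPM with shTMLHE 1, and 71.4, 68.6 and 69.8 CPM with shTMLHE 2, against 106.9, 106.3 and 110.8 CPM with CCNE1. No library of the 3 groups overlapped another group. The log2 fold change was 0.48 ± 0.05 with shTMLHE 1 (edgeR adjusted p = 2.18e-11) and -0.63 ± 0.05 with shTMLHE 2 (edgeR adjusted p = 1.38e-14). The PAX8 rise with shTMLHE 1 held in every scaling, at 0.87 with total counts and 0.53 without the GC and length trend. The PAX8 fall with shTMLHE 2 was -0.10 (edgeR adjusted p = 0.0654) with total counts and -0.20 (adjusted p = 0.000226) without the trend.

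PAX8-AS1 lies on the opposite strand and shares 685 exon bases, 9.26% of those of PAX8; the strand setting of the counting is not given in the sources used here, so reads from the shared bases cannot be told apart. It averaged 11.5 ± 1.22 CPM with shTMLHE 1 and 6.70 ± 0.752 CPM with shTMLHE 2, against 3.95 ± 1.10 CPM with CCNE1 (SD, n = 3 each). Its log2 fold change was 1.55 ± 0.19 with shTMLHE 1 (edgeR adjusted p = 6.42e-09) and 0.77 ± 0.20 with shTMLHE 2 (edgeR adjusted p = 0.000695), where PAX8 itself fell. The second was 0.33 (adjusted p = 0.140) without the GC and length trend.

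MSLN, on chromosome 16 from 760762 to 768865, had 280, 301 and 295 CPM with shTMLHE 1, and 136, 140 and 140 CPM with shTMLHE 2, against 365, 363 and 374 CPM with CCNE1. The groups again did not overlap, with shTMLHE 2 lowest. The log2 fold change was -0.33 ± 0.04 with shTMLHE 1 (edgeR adjusted p = 2.08e-10) and -1.41 ± 0.04 with shTMLHE 2 (edgeR adjusted p = 1.53e-29). MSLN with shTMLHE 1 turned to 0.06 with total counts (adjusted p = 0.116) and to 0.26 without the GC and length trend (adjusted p = 2.72e-08). MSLN with shTMLHE 2 was -0.88 with total counts and -0.09 (edgeR adjusted p = 0.0235) without that trend. Its size thus depended on whether the joint trend with GC content and length was removed.

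FOLR1, on chromosome 11 from 72189558 to 72196323, had 5.10, 5.03 and 4.06 CPM with shTMLHE 1, and 3.29, 3.86 and 4.21 CPM with shTMLHE 2, against 10.8, 10.8 and 6.65 CPM with CCNE1. Both hairpin groups lay below every CCNE1 library and overlapped each other. The log2 fold change was -0.99 ± 0.18 with shTMLHE 1 (edgeR adjusted p = 1.26e-05) and -1.32 ± 0.19 with shTMLHE 2 (edgeR adjusted p = 4.73e-08). Over all 19 alternatives, library removals included, FOLR1 stayed called and lower, between -1.19 and -0.59 with shTMLHE 1 and between -1.52 and -0.60 with shTMLHE 2. FOLR1 was thus the marker whose call and direction held in every setting of both knockdown comparisons and of CCNE1 minus control.

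MUC1, on chromosome 1 from 155185824 to 155192916, had 6.08, 5.14 and 4.84 CPM with shTMLHE 1, and 10.2, 9.05 and 9.48 CPM with shTMLHE 2, against 6.50, 6.71 and 10.7 CPM with CCNE1. The shTMLHE 1 libraries lay below all CCNE1 libraries, while the shTMLHE 2 libraries lay within their range. The log2 fold change was -0.57 ± 0.19 with shTMLHE 1 (edgeR adjusted p = 0.00739) and 0.27 ± 0.17 with shTMLHE 2 (edgeR adjusted p = 0.169). Without CCNE1 replicate 3 MUC1 was -0.30 (adjusted p = 0.167) with shTMLHE 1 and 0.54 (adjusted p = 0.00769) with shTMLHE 2. The MUC1 value for shTMLHE 1 also lost its call with total counts (-0.18) and without the GC and length trend (-0.29), and that for shTMLHE 2 gained one (0.79 and 0.98).

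WFDC2, on chromosome 20 from 45469706 to 45481532, had 10, 12 and 12 counts with shTMLHE 1, and 2, 6 and 8 counts with shTMLHE 2, against 13, 14 and 24 counts with CCNE1. In CPM it averaged 0.646 ± 0.0905 with shTMLHE 1 and 0.271 ± 0.184 with shTMLHE 2, against 1.09 ± 0.389 with CCNE1 (SD, n = 3 each). The shTMLHE 2 libraries were below all CCNE1 libraries, at a log2 fold change of -2.03 ± 0.62 (edgeR adjusted p = 0.00391), which was -1.30 (adjusted p = 0.0694) without the GC and length trend. The shTMLHE 1 libraries were below all CCNE1 libraries too, but their change of -0.74 ± 0.57 was not called (edgeR adjusted p = 0.264).

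**Figure D3:**
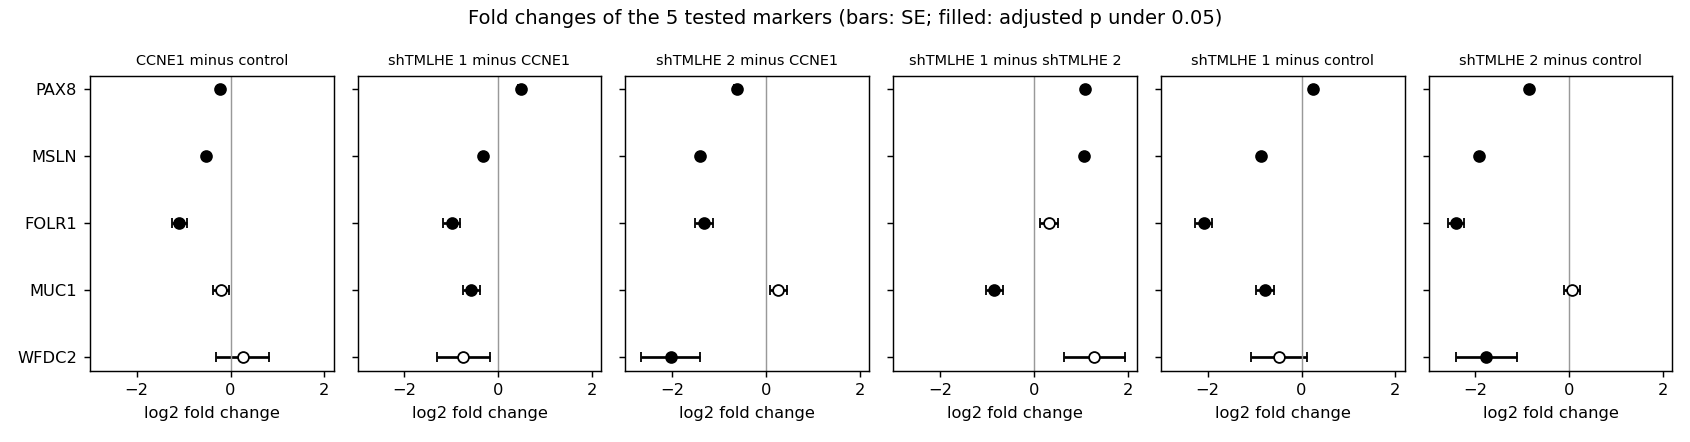
Log2 fold changes of the 5 tested markers in the 6 comparisons, as first group minus second, with bars for the SE. Filled points passed an adjusted p under 0.05 and open points did not. FOLR1 and MSLN lie left of 0 wherever CCNE1 or a hairpin group is set against the group without that change, while PAX8 lies on both sides; values are under TMM scaling, and MSLN for shTMLHE 1 minus CCNE1 turned to 0.26 without the GC and length trend.

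The hairpins were compared with each other directly, since passing with one and not the other is no test of a difference. PAX8 was 2.15-fold higher with shTMLHE 1 than with shTMLHE 2 and MSLN 1.08 higher on the log2 scale, while MUC1 was lower by 0.84. Of the 5 tested markers, 2 were higher and 1 was lower, where 60.3% of all tested genes were called, 31.3% higher and 29% lower. The log2 differences were 1.10 ± 0.05 for PAX8 (edgeR adjusted p = 6.29e-22), 1.08 ± 0.04 for MSLN (edgeR adjusted p = 4.44e-25) and -0.84 ± 0.18 for MUC1 (edgeR adjusted p = 0.000100). FOLR1 differed by 0.33 ± 0.20 (edgeR adjusted p = 0.143) and WFDC2 by 1.29 ± 0.65 (edgeR adjusted p = 0.0845), neither past the threshold. The hairpins also differed in the GC trend, with a rho of 0.60 across genes for their difference. Without the GC and length trend the MSLN difference was 0.35 and the PAX8 difference 0.73.

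**Figure D4:**
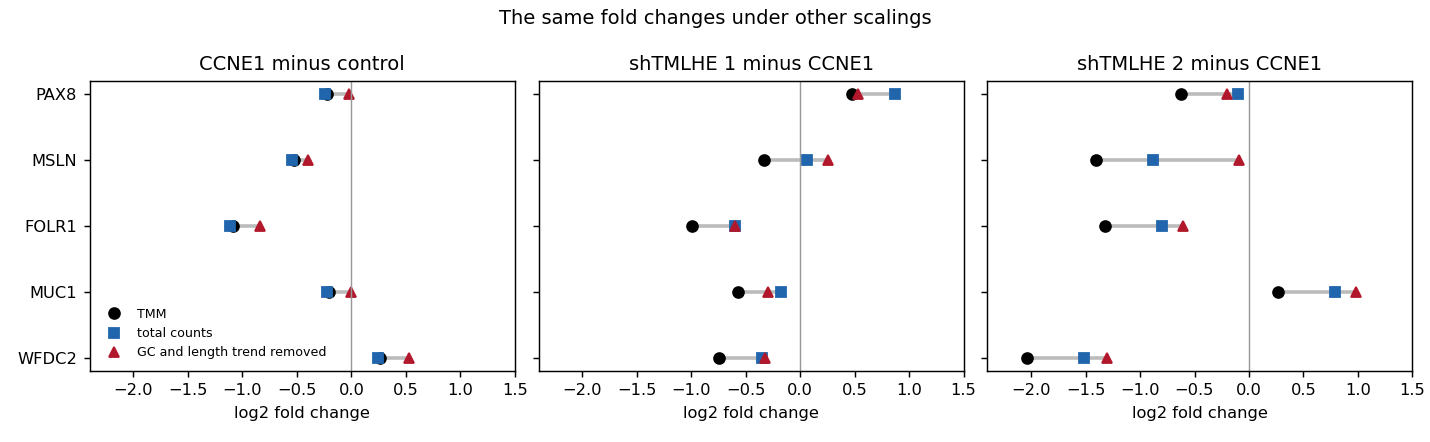
Log2 fold changes of the 5 tested markers under TMM scaling (circles), total counts (squares) and with the trend in GC content and length removed (triangles), joined by a grey line. Positive values are higher in the first group named. FOLR1 stays left of 0 in all 3 comparisons, and MSLN crosses 0 for shTMLHE 1 minus CCNE1, at -0.33, 0.06 and 0.26.

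Both hairpin groups were also set against control, which shares libraries with the comparisons above. With shTMLHE 1, 1 of the 5 tested markers was higher and 3 were lower, where 68.7% of all tested genes were called, 35.3% higher and 33.4% lower. With shTMLHE 2, 0 were higher and 4 were lower, where 78.1% were called, 39% higher and 39.1% lower. With total counts and without the GC and length trend alike, the split was 1 higher (PAX8) and 2 lower for shTMLHE 1, and 1 higher (MUC1) and 3 lower for shTMLHE 2. The log2 fold change of FOLR1 was -2.08 with shTMLHE 1 (edgeR adjusted p = 3.29e-13) and -2.41 with shTMLHE 2 (edgeR adjusted p = 3.50e-15), the second at -1.45 without the GC and length trend. MSLN was -0.86 with shTMLHE 1 (edgeR adjusted p = 1.12e-22) and -1.93 with shTMLHE 2 (edgeR adjusted p = 7.63e-34), which became -0.14 and -0.49 without the GC and length trend. PAX8 was at 0.25 with shTMLHE 1 (edgeR adjusted p = 1.10e-05) and -0.85 with shTMLHE 2 (edgeR adjusted p = 1.13e-18), which were 0.63 and -0.34 with total counts and 0.51 and -0.23 without the trend, all still called. MUC1 was -0.78 with shTMLHE 1 (edgeR adjusted p = 0.000358), a call lost with total counts (-0.40) and without the GC and length trend (-0.30).

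From these tests the order of the groups by level differed between markers. PAX8 ran from shTMLHE 1 through control and CCNE1 to shTMLHE 2, and each neighbour differed from the next under TMM scaling. Its step between CCNE1 and control was not called without the GC and length trend, nor that between shTMLHE 2 and CCNE1 with total counts. MSLN ran from control through CCNE1 and shTMLHE 1 to shTMLHE 2, again with each neighbour past the threshold under TMM scaling, and its step between shTMLHE 1 and CCNE1 turned as given above. FOLR1 followed the order of MSLN, but its lowest groups, shTMLHE 1 and shTMLHE 2, were not separated. MUC1 was highest with shTMLHE 2, then control, then CCNE1, and these 3 were not separated, with shTMLHE 1 below them. No neighbours were separated for WFDC2, which ran from CCNE1 through control and shTMLHE 1 to shTMLHE 2.

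The genes whose log2 CPM followed a marker most closely over the 12 libraries were taken from the 11685 genes that averaged 1 or more on the log2 CPM scale. They were AXL, SLC6A8 and ERCC2 for MSLN (Pearson r of 0.999, 0.999 and 0.997) and HMOX1, MAN2B2 and FARP1 for PAX8 (0.993, 0.993 and 0.991). FOLR1 was closest to OTUB2, LITAF and FOXK2 (0.984, 0.982 and 0.978), and MUC1 to NKIRAS2, PPT2 and TBC1D14 (0.945, 0.927 and 0.909). These values describe 4 group levels in shared libraries, whose GC trends differ, and carry no test.

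Other antigens and markers known from ovarian cancer, largely surface or secreted proteins, were more often lower than higher with both hairpins under TMM scaling. The list also holds the intracellular proteins CRABP2 and PRAME. Of 26 genes on that list 14 could be tested: 1 rose and 8 fell with shTMLHE 1, and 0 rose and 11 fell with shTMLHE 2, against CCNE1. Median log2 fold changes were -0.78 and -0.86, against 0.03 over all tested genes. With total counts the list had 3 higher and 5 lower for shTMLHE 1 and 5 higher and 6 lower for shTMLHE 2, and without the GC and length trend 2 and 6, and 4 and 5. In CCNE1 minus control 4 rose and 5 fell. For this list and those below, the shares of all tested genes called were 60.7% with shTMLHE 1 and 73% with shTMLHE 2. In CCNE1 minus control that share was 44.2%.

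LY6E, a GPI-anchored protein, averaged 300.2 ± 9.53 CPM with shTMLHE 1 and 220.0 ± 3.86 CPM with shTMLHE 2, against 663 ± 13.5 CPM with CCNE1 (SD, n = 3 each), a log2 fold change of -1.14 with shTMLHE 1 and -1.59 with shTMLHE 2, or -0.59 and -0.39 without the GC and length trend. CRABP2, a retinoic acid carrier, averaged 9.74 ± 0.736 CPM with shTMLHE 1 and 7.63 ± 0.911 CPM with shTMLHE 2, against 27.1 ± 2.70 CPM with CCNE1 and 55.4 ± 2.06 CPM in control. CRABP2 fell by 1.47 with shTMLHE 1 and by 1.82 with shTMLHE 2 against CCNE1, and by 1.03 in CCNE1 minus control, on the log2 scale. Its direction was the same in every scaling tried, with 1.02, 1.05 and 0.77 as the sizes of these falls without the GC and length trend. MDK, the growth factor midkine, averaged 22.1 ± 1.81 CPM with CCNE1, against 103 ± 1.36 CPM in control, a log2 fold change of -2.22 ± 0.08. CD24, a surface glycoprotein, fell by 1.25 with shTMLHE 1 and by 0.43 with shTMLHE 2, and the CD24 value for shTMLHE 2 turned to 0.10 with total counts, as that of MDK (-0.92) turned to 0.37 without the GC and length trend. EPCAM, an epithelial adhesion molecule, averaged 2.51 to 3.27 CPM and passed in none of these comparisons. Among the genes too low to test, SLC34A2 (the sodium-phosphate transporter NaPi2b) had 1 count, VTCN1 (B7-H4) 3 counts and KLK6 0 counts over 12 libraries.

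**Figure D5:**
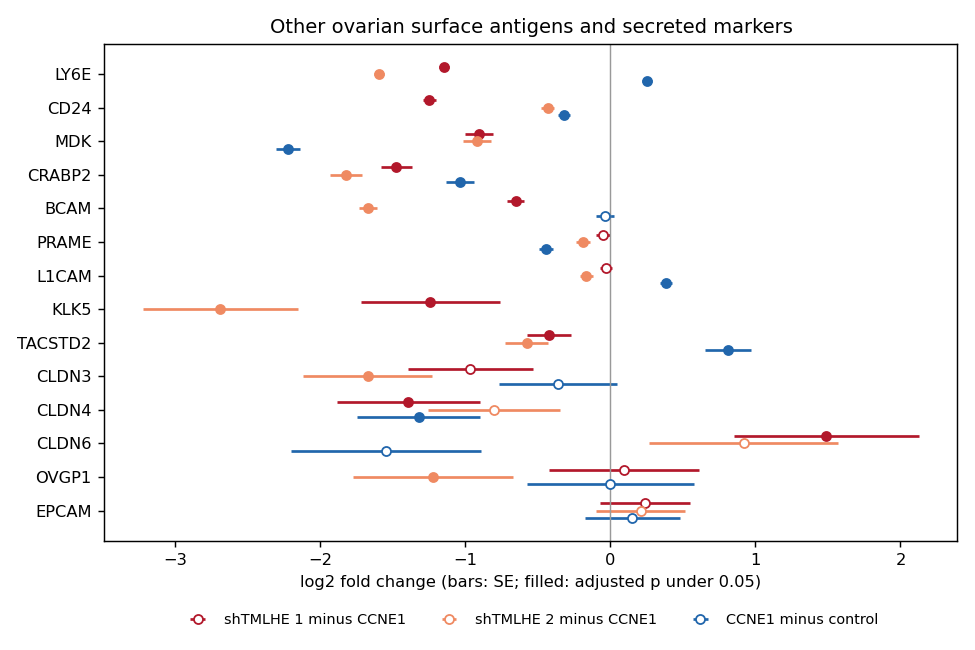
Log2 fold changes of the 14 tested genes of the list of other surface antigens and secreted markers. Bars are the SE, and the list also holds the intracellular proteins CRABP2 and PRAME. Colours give the comparison, filled points passed an adjusted p under 0.05, and KLK5 for CCNE1 minus control is left out because control held 1 count. LY6E, CD24, MDK, CRABP2 and BCAM lie left of 0 with both hairpins under the TMM scaling drawn; for shTMLHE 2, CD24 turned to 0.10 with total counts and MDK to 0.37 without the GC and length trend.

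The mucins beside MUC1 and MUC16 were almost silent: 0 of 12 could be tested, their summed level was 0.275 to 1.35 CPM per library, and 3 had no count in any library. MUC20 had 64 counts over the 12 libraries. Of other members of the markers' own families, 9 of 16 could be tested, with 1 higher and 1 lower for shTMLHE 1, 1 higher and 3 lower for shTMLHE 2, and 2 higher and 1 lower for CCNE1 minus control. The balance for shTMLHE 2 turned to 5 higher and 2 lower with total counts and to 3 higher and 1 lower without the GC and length trend. PAX2, the close relative of PAX8, averaged 1.70 ± 0.109 CPM with shTMLHE 1 and 0.743 ± 0.221 CPM with shTMLHE 2, against 1.94 ± 0.244 CPM with CCNE1 (SD, n = 3 each). It was chosen after its values were seen. PRDM16, the close relative of MECOM, averaged 13.99 ± 0.653 CPM with shTMLHE 1, 7.35 ± 0.701 CPM with shTMLHE 2, 8.83 ± 0.783 CPM with CCNE1 and 5.74 ± 2.22 CPM in control, where MECOM had no count.

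Other transcription factors of the Müllerian duct and the ovary did not move as a block. Of 20 on the list 15 could be tested: 4 rose and 2 fell with shTMLHE 1, and 1 rose and 4 fell with shTMLHE 2. In CCNE1 minus control 5 rose and 2 fell. Of the 15, 9 were not called with shTMLHE 1 and 10 with shTMLHE 2, where 60.7% and 73% of all tested genes were called. With total counts the split was 6 higher and 1 lower for shTMLHE 1 and 6 higher and 2 lower for shTMLHE 2. ZNF503, a zinc finger repressor, went opposite ways like PAX8, with a log2 fold change of 0.67 ± 0.10 with shTMLHE 1 and -1.03 ± 0.10 with shTMLHE 2, although the second was 0.04 without the GC and length trend. HOXC10, a posterior homeobox gene, fell by 0.61 with shTMLHE 1 and by 1.06 with shTMLHE 2 on the log2 scale, or by 0.22 and 0.53 with total counts. SOX9 rose with shTMLHE 1 by 0.76 and in CCNE1 minus control by 1.13, and TCF21, a mesodermal factor, averaged 1.73 ± 0.92 CPM with CCNE1, against 9.04 ± 0.344 CPM in control. GATA4 had no count in any library.

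Folate genes were read beside FOLR1, which brings folate into the cell. All 10 could be tested: 1 rose and 7 fell with each hairpin, against 5 that rose and 1 that fell in CCNE1 minus control, where FOLR1 itself fell. FPGS, which adds the glutamates that keep folate in the cell, averaged 138 ± 5.70 CPM with shTMLHE 1 and 65.4 ± 4.30 CPM with shTMLHE 2, against 265 ± 3.44 CPM with CCNE1 (SD, n = 3 each). SHMT2, of the mitochondrial one-carbon pathway, averaged 685 ± 35.3 CPM with shTMLHE 1 and 261 ± 5.78 CPM with shTMLHE 2, against 798 ± 9.45 CPM with CCNE1, and its small fall with shTMLHE 1 (-0.22) was 0.17 with total counts. Without the GC and length trend the log2 fold change of FPGS was -0.48 with shTMLHE 1 and -0.92 with shTMLHE 2, against -0.94 and -2.02 under TMM scaling. The folate list as a whole had 4 higher and 3 lower for shTMLHE 1 and 5 higher and 4 lower for shTMLHE 2 with total counts.

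Genes reported in other systems as WT1 targets were measured although WT1 had 36 counts in all. Of 11 such genes 10 could be tested: 5 rose and 2 fell with shTMLHE 1, 5 rose and 3 fell with shTMLHE 2, and 3 rose and 0 fell in CCNE1 minus control. With total counts 8 were higher and 2 lower for shTMLHE 2, and without the GC and length trend 6 were higher and 0 lower for CCNE1 minus control. PODXL, the sialomucin podocalyxin, averaged 696 ± 16.5 CPM with shTMLHE 1, 342 ± 8.51 CPM with shTMLHE 2, 264 ± 6.45 CPM with CCNE1 and 169 ± 8.50 CPM in control. ETS1 averaged 254 ± 4.77 CPM with shTMLHE 1 and 281 ± 9.51 CPM with shTMLHE 2, against 116 ± 3.74 CPM with CCNE1.

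Keratins of simple epithelia were among the abundant genes except KRT19, which was too low to test, and E-cadherin was low. KRT8, KRT18 and KRT7 averaged 4006, 2572 and 1177 CPM with CCNE1 against 2932, 1309 and 265 CPM in control, and rose in that comparison by 0.45, 0.97 and 2.15 on the log2 scale. KRT18 averaged 1534 ± 41.4 CPM with shTMLHE 1 and 869 ± 11.6 CPM with shTMLHE 2, and fell against CCNE1 with both. CDH1 (E-cadherin) was low, at 1.18 to 3.74 CPM, beside 56.8 to 130 CPM of CDH2 (N-cadherin), and GRHL2 had no count. Of 13 genes 11 could be tested, with 4 higher and 5 lower for shTMLHE 1 and 5 and 5 for shTMLHE 2. In CCNE1 minus control 6 were higher, 1 was lower and 4 were not called. For shTMLHE 1 the split was 8 higher and 2 lower with total counts, and 1 higher and 3 lower without the GC and length trend.

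Markers of other cell types were read because MSLN and WT1 are also made by mesothelium. The 10 mesothelial markers summed to 21.5 to 26.2 CPM with shTMLHE 1, 11.3 to 11.4 CPM with shTMLHE 2, 18.8 to 25.1 CPM with CCNE1 and 14.985 to 16.7 CPM in control. Of them ITLN1 and THBD had 0 counts, and CALB2 (calretinin) averaged 7.81 ± 1.53 CPM with shTMLHE 1, 1.46 ± 0.613 CPM with shTMLHE 2, 8.64 ± 1.66 CPM with CCNE1 and 5.10 ± 0.188 CPM in control. PDPN (podoplanin), which has the smallest p of the list, averaged 12.2 ± 1.56 CPM with shTMLHE 1, 5.57 ± 0.136 CPM with shTMLHE 2, 6.74 ± 0.835 CPM with CCNE1 and 1.11 ± 0.118 CPM in control. Of the 5 tested, 1 was higher and 2 lower for shTMLHE 1, 0 higher and 3 lower for shTMLHE 2 and 2 higher and 1 lower for CCNE1 minus control. Without the GC and length trend the first of these was 1 higher and 0 lower and the second 1 and 1. The labels name no cells but Ovcar8, and a part of other cells in the MSLN values was not tested. The 6 leukocyte markers summed to 0.801 to 2.90 CPM, with 4 counts of PTPRC and 0 of HBB in all, and the 6 endothelial markers to 1.66 to 4.65 CPM, with 6 counts of CDH5. Of the 7 fibroblast markers DCN had 0 counts and COL1A2 12 counts, while COL1A1 averaged 605 ± 16.3 to 1551 ± 45.9 CPM. In bulk RNA, fewer cells with a marker and less of its RNA per cell cannot be told apart.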

How the data were processed

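The 12 Ovcar8 libraries fall into 4 groups of 3 by their labels. The deposited table holds the authors' raw whole-number counts for 58735 genes. The submitters' processing notes name STAR 2.6.1, DESeq2 (listed as version 2) and GRCh38. No source used here names the counting program or its strand setting. The FPKM values deposited by the authors are these counts per exon length and scaled library size, and served in an alternative only. Gene lengths in the table equal the exon lengths of GENCODE 29 for 100% of genes, so that annotation gave coordinates and GC content. Promoter windows are from RefSeq (GRCh38.p14), where 7 of the 10 markers have a window used here.

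Counts were tested with edgeR 4.0.16 in R 4.3.3 by the quasi-likelihood method (robust), with a mean for each group, over all 12 libraries (8 residual degrees of freedom), TMM factors and filterByExpr by group, which kept 15378 genes. Benjamini-Hochberg adjustment ran over every tested gene, with a threshold of 0.05. CPM and RPKM rest on TMM-scaled library sizes; means carry the SD (n = 3) and fold changes the SE. A count of 0 was read against a floor of 3 counts. The fit was tested on simulated data.

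The markers and the 17 gene lists were chosen with earlier results of these data known. All markers are named, with up to 4 tested genes of each list by smallest p, and the antisense transcripts. ITLN1, THBD, PTPRC, HBB, CDH5, DCN, COL1A2, FSHR, CYP19A1, NANOG and DAZL were too low to test and were named for their counts. PAX2, EPCAM, BCAM, KLK5, KLK6, SLC34A2, VTCN1, MUC20, GATA4, CDH1, CDH2, GRHL2, KRT19 and PRAME were named after their values were seen. Alternatives were RLE, upper quartile and total-count scaling, offsets that remove each library's trend with GC content and length (splines with 5 degrees of freedom), other filters on low counts, an adjusted p under 0.01, the compared groups alone, DESeq2 1.42.0, limma-trend (limma 3.58.1) on log2(FPKM + 0.1) and log2(FPKM + 1), the replicate number as a block, and each library left out in turn.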

Additional observations from a re-analysis of the deposited data

Results flagged for a closer look

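The effects of the hairpins differed by their direct test (edgeR quasi-likelihood test, shTMLHE 1 minus shTMLHE 2) for 3 markers: PAX8 by 1.10, MSLN by 1.08 and MUC1 by -0.84 on the log2 scale. In each of these the 3 libraries of shTMLHE 1 lay wholly on 1 side of the 3 libraries of shTMLHE 2. The same held for WFDC2, which did not pass. In this comparison 60% of the 5 tested markers were called, beside 60.3% of all tested genes. The share of all genes without overlap was not counted. PAX8 stands on opposite sides of CCNE1 with the hairpins, whereas MSLN is below CCNE1 with both under TMM scaling, and MUC1 is below CCNE1 with shTMLHE 1 and within its range with shTMLHE 2.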

How the results depend on the processing

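Of 568 recomputed marker values, 532 kept their direction and their side of the threshold, 18 lost a call, 10 gained one and 8 reversed. Of 114 counts of markers called in either direction, 113 stayed within 1.5 times. Such counts of 5 tested markers are coarse and ignore direction. The turned split for shTMLHE 1 minus CCNE1 without the GC and length trend does not show in them. With total counts, 2 markers rather than 4 were called for shTMLHE 1 minus CCNE1, where MSLN reversed to 0.0630. MSLN reversed to 0.26 there without the GC and length trend, and to 0.26 with that correction and the replicate block together. WFDC2 for shTMLHE 1 minus control reversed to 0.20 without the trend and to 0.21 with the block as well, and ranged from -0.75 to 0.0840 as libraries were left out, the last without control replicate 2. WFDC2 for CCNE1 minus control ranged from -0.0635, without CCNE1 replicate 3, to 0.83, and was -0.01 without control replicate 1; its counts of 2 to 24 limit it. WFDC2 for shTMLHE 2 minus control (-1.77, edgeR adjusted p = 0.0130) lost its call with total counts (-1.27), without the trend (-0.78), without control replicate 2 (-1.20) and without shTMLHE 2 replicate 1 (-1.30). MUC1 for shTMLHE 2 minus CCNE1 also passed with upper quartile scaling (0.38), and MUC1 for shTMLHE 2 minus control (0.06) passed with total counts (0.57) and without the trend (0.98). The WFDC2 difference between the hairpins passed on log2(FPKM + 0.1), at 1.04. The cause of these changes was not tested. Same-numbered libraries did not deviate together (correlations of -0.0465 to 0.0263 over 18 pairs, 0 above 0.1), so the numbers give no pairing; with the replicate block 30 of 30 marker values kept their call, and the members called stayed at 3 for CCNE1 minus control, 4 for shTMLHE 1 minus CCNE1 and 4 for shTMLHE 2 minus CCNE1. Of 1938 recomputed list counts, 149 moved by more than 1.5 times.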

Other observations

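Markers of other ovarian tumour types were present in part. Of 6 clear cell markers 5 could be tested, with 2 higher and 1 lower for shTMLHE 1 minus CCNE1, 0 and 2 for shTMLHE 2 minus CCNE1, and 2 and 1 for CCNE1 minus control. ANXA4, an annexin, averaged 34.4 ± 1.51 CPM with shTMLHE 1 and 27.5 ± 1.48 CPM with shTMLHE 2, against 49.6 ± 2.86 CPM with CCNE1, and fell with both hairpins, although the ANXA4 call for shTMLHE 1 was lost with total counts. GPC3, a glypican, averaged 30.5 ± 1.88 CPM with shTMLHE 1, 12.7 ± 0.835 CPM with shTMLHE 2, 20.7 ± 2.31 CPM with CCNE1 and 37.8 ± 2.45 CPM in control. TFPI2, a protease inhibitor, averaged 116 ± 3.12 CPM with shTMLHE 1, 96.3 ± 1.48 CPM with shTMLHE 2, 91.1 ± 3.67 CPM with CCNE1 and 69.3 ± 1.71 CPM in control (SD, n = 3 each). Of 8 mucinous or intestinal markers 2 could be tested. CDX2, a homeobox factor of intestinal epithelium, averaged 9.45 ± 0.929 CPM with shTMLHE 1, 6.53 ± 0.603 CPM with shTMLHE 2, 10.5 ± 0.438 CPM with CCNE1 and 9.77 ± 1.90 CPM in control, and fell with shTMLHE 2 (log2 fold change -0.68 ± 0.16, edgeR adjusted p = 0.000243), a call lost with total counts and without the GC and length trend.

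Of 7 granulosa and sex cord markers 3 could be tested, with 0 higher and 2 lower with each hairpin, which turned to 1 higher and 0 lower for shTMLHE 1 and 2 higher and 0 lower for shTMLHE 2 without the GC and length trend. FOXL2, the granulosa cell factor, averaged 6.88 ± 1.17 CPM with shTMLHE 1, 3.71 ± 0.189 CPM with shTMLHE 2, 10.1 ± 1.09 CPM with CCNE1 and 10.6 ± 1.55 CPM in control, and fell against CCNE1 by 0.56 with shTMLHE 1 and by 1.45 with shTMLHE 2 on the log2 scale, calls that were both lost without the GC and length trend. FSHR had 0 counts and CYP19A1 4 counts over 12 libraries. Of 7 germ cell markers 3 could be tested, with 1 higher and 0 lower in each of the 3 comparisons. The higher gene was TFAP2C for CCNE1 minus control (log2 fold change 2.38) and for shTMLHE 1 (0.90), but SALL4 for shTMLHE 2 (1.38). With total counts 2 were higher and 0 lower for each hairpin. NANOG and DAZL had 0 counts.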
